A study of Homo sapiens with 5 samples.

Results

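SPATS2 (spermatogenesis associated serine rich 2) was the mRNA with the most exon peaks in the Odd list of an SNHG5 pull-down from HCT116 cells, and its peaks are described here exon by exon. Its members were all deposited peaks that overlapped the gene at chr12:49760367-49921208 in hg19, on the plus strand, which gave 13 Odd peaks, or 1.44% of all Odd peaks, and 17 of the 8626 Even peaks. No measured value entered that choice other than the presence of a peak, although the gene itself was picked with these results known.

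HCT116 is a human colorectal cancer cell line. RIA-seq (RNA interactome analysis and sequencing) was carried out with biotinylated DNA oligonucleotides antisense to SNHG5, split into an Odd and an Even pool. The series held 5 libraries of HCT116 cells, of which 2 were labelled Odd, 1 Even and 2 Input. The methods name a luciferase oligonucleotide pool as the background reference and state that an Even replicate failed, and the labels call the control libraries Input. Neither source states whether the luciferase and the Input libraries are the same, so which of them the control background stands for is not settled. The Odd list pooled both Odd libraries and the Even list came from the Even library alone, so SPATS2 had 1 value per pool and exon, no replicate error could be computed and no test between samples was run. Both pools were called against the same control libraries, so their fold enrichments are not independent and are given side by side.

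SNHG5 is a long non-coding RNA and the host gene of small nucleolar RNAs. In a pull-down of this kind, an RNA held by the bait is retrieved with it, and enrichment over the control is read as a peak where its fragments pile up. The SPATS2 protein is thought to bind RNA in the cytoplasm, and the study went on to examine its mRNA together with STAU1, a binder of double-stranded RNA with a known part in mRNA decay.

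The pileup of a peak is the number of extended sequence tags lying over its highest base, the summit. MACS, the peak caller, extended each tag by 260 bp for Odd and 290 bp for Even and scaled the smaller of pull-down and control up to the larger. The control background is the pileup that the control predicts at that place, and the fold enrichment is the pileup divided by it. The Odd values stood at a depth of 4904959 tags and needed no scaling, whereas the Even values were multiplied by 2.03 to the control's depth of 3986040. The Even −log10 p belongs to the scaled pileup, so it is larger than the unscaled tags would give. At most 3 tags per position were kept for Odd and 2 for Even, which left 3.27% of 150214135 Odd tags and 3.51% of 55933565 Even tags.

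The lists were cut at different levels. The methods took the same number of peaks for both pools, whereas the deposited Even list of 8626 peaks is longer than the Odd list. Only 2 of its peaks had a p above 0.001, the threshold of the peak calling, and every Even share and median below rests on that longer list unless stated. The smallest −log10 p in the Odd list was 26.7 and that in the Even list was 0.36, and the median Odd peak was enriched 22.8-fold, beside 9.47-fold for the median Even peak. As a check of the pull-down, peaks covered 5 of the 6 exons of the bait SNHG5 in the Odd list and all 6 in the Even list. The fold enrichments of the 2 Odd exon peaks on SNHG5 were 1.65 and 45.51, so the lower of them stood little above the control. Those of the 3 Even exon peaks ran from 7.1 to 46.64. The highest SNHG5 pileup was 1553 for Odd and 2200 for Even, against a ceiling of 1560 and 2352 that the tag extension and the duplicate limit allow.

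The canonical SPATS2 mRNA is 3240 nt long and has 14 exons, numbered here from the 5′ end. Exons 1 and 2 and most of exon 3 form a 5′ UTR of 432 nt, the 25 last bases of exon 3 start the coding sequence, and exon 14 holds the last 309 coding bases and a 3′ UTR of 1170 nt. Introns made up almost all of the gene, with 156724 bp between the first and last exon, and exons 2.01% of it. The sequences below are those of 3 coding exons that mark the extremes of the data. Exon 6 had no Odd peak, exon 10 had the largest fold enrichment in both pools and exon 13 the largest summit pileup divided by exon length. They were read from GRCh37, the build of hg19, on the plus strand, at chr12:49884465-49884514, chr12:49908338-49908396 and chr12:49918465-49918679. Capitals mark the Even summit with 5 bases on each side.

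exon 6: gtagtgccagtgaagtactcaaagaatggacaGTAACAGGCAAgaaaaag

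exon 10: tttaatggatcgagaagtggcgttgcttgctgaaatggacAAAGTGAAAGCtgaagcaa

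exon 13: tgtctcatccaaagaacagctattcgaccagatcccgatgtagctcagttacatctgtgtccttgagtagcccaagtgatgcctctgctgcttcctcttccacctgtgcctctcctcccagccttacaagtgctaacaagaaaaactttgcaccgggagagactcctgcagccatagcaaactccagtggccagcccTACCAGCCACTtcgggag

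Peaks covered nearly the whole spliced mRNA in both pools. In the Odd list 13 of 14 exons had a peak, which covered 98.5% of the mRNA, and each of these 13 exons had its own peak and was covered from end to end. In the Even list all 14 exons had a peak of their own, which covered 99.8% of the mRNA, and only exon 4 was covered in part, at 92.5%. Among protein-coding genes with at least 1 exon under a peak, 9.79% of canonical exons had an Odd peak and 9.82% an Even peak. Over the introns of SPATS2, peaks covered 3.25% of the length in the Odd list and 4.23% in the Even list, and apart from 3 weak Even peaks this was the overhang of the exon peaks.

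The 2 pools agreed exon by exon. All 13 Odd peaks of SPATS2 were overlapped by an Even peak, whereas 39.8% of the whole Odd list was. With the Even list shortened to as many peaks as the Odd list, 10 of the 13 were overlapped when its peaks were ranked by p and 1, that of exon 10, when they were ranked by fold. Of the whole Odd list, the same shortened lists overlapped 13.1% and 11.6%. In the other direction 13 of the 17 Even peaks were overlapped by an Odd peak, against 4.32% of the whole Even list. The pileups of the pools rose and fell together along the 13 exons that had both, with a Spearman rho of 0.93, given as a description because the exons share their libraries and the transcript. Pileup also went with the control background that both calls share, with rho of 0.63 in Odd and 0.70 in Even.

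**Figure D1:**
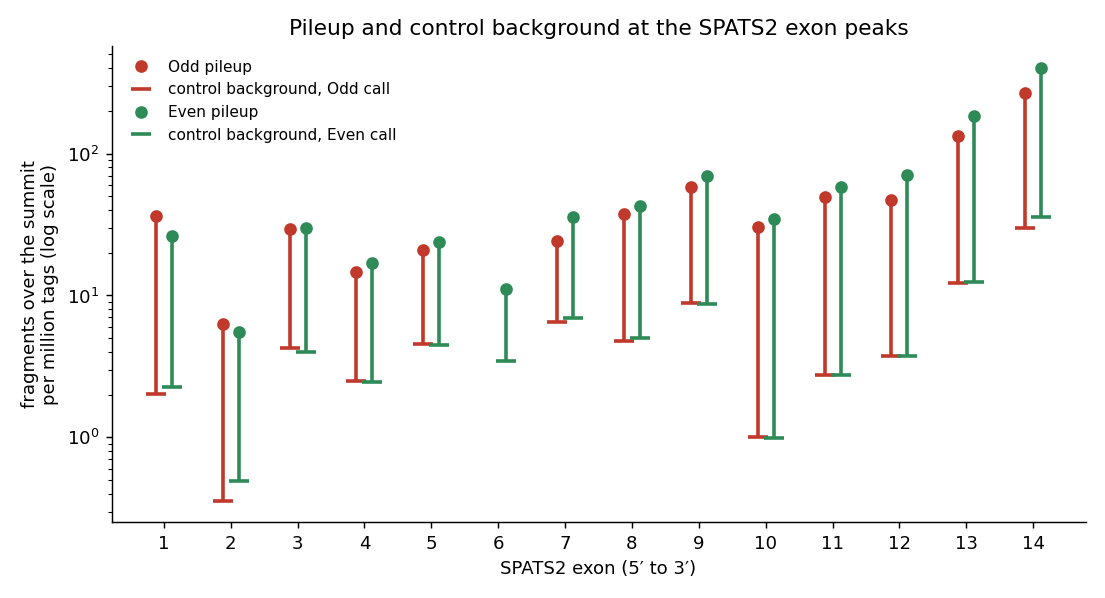
Pileup at the summit (circles) and control background (bars at the foot of each line) of the SPATS2 exon peaks, scaled to the same number of kept tags on a log axis, for the Odd (red) and Even (green) pools. Both pools climb towards the 3′ end, exon 2 is lowest and exon 14 highest, and exon 6 has an Even peak alone.

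Exons 1 and 2, in the 5′ UTR, had lower control backgrounds than exon 3 in both pools. At exon 1 the Odd peak (chr12:49761080-49761607, 528 bp) had a pileup of 178 over a background of 9.85, which is 18.1-fold. The Even peak there reached 105 over 8.96, or 11.7-fold. At exon 2 the Odd pileup was 31 over 1.76, a fold enrichment of 17.6, and the Even pileup was 22 over 1.97, a fold enrichment of 11.2. Exon 2 thus had the lowest pileup of all SPATS2 exons in both pools, and because its background was lower still it ranked near exon 1 by fold. At exon 3, which holds the start codon, the Odd pileup was 144 over 20.9, a fold enrichment of 6.88, and the Even pileup 119 over 15.9, a fold enrichment of 7.48. Exons 1 and 2 were the only exons with a lower fold enrichment in Even than in Odd.

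Exons 4 to 7, which encode residues 9 to 176, were the weakest stretch by fold enrichment. The Odd peak at exon 4 had a pileup of 72 and a fold enrichment of 5.85, beside 68 and 6.89 in Even. At exon 5 the pileup was 103 with a fold enrichment of 4.65 in Odd, and 95 with 5.30 in Even. At exon 7 it was 119 with 3.72 in Odd, the lowest fold enrichment of the 13 Odd peaks, and 143 with 5.14 in Even. The control background over exons 4, 5 and 7 was 12.3 to 32.0 in the Odd call, well above the median of 3.69 for the whole Odd list.

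Exon 6, the shortest with 50 nt, encodes residues 72 to 88 and was the only exon without an Odd peak. Its Even peak (chr12:49884246-49884540, 295 bp) had a pileup of 44 over a background of 13.8, the lowest fold enrichment of the Even exon peaks at 3.19, and a −log10 p of 10.4. Before scaling, 22 Even tags lay over this summit, and the p was computed on the scaled pileup. Rescaled to the Odd depth, the Even pileup of 44 is 54.1 over a background of 17.0. At such a background a pileup of 78 would have been needed to reach the smallest −log10 p of the Odd list. An Odd peak of the Even height on that background would thus have lain below the end of the Odd list, and the missing peak does not show that exon 6 was not retrieved. The Even peak itself ended 26 bp beyond the 3′ end of the exon, whereas the other Even peaks on exons 1 to 13 reached 218 to 276 bp beyond it.

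Exons 8 and 9, for residues 176 to 280, had higher pileups than exons 4 to 7, and the background of exon 9 was above all of theirs, whereas that of exon 8 lay within their range. At exon 8 the Odd pileup was 184 over 23.4 and the Even pileup 170 over 19.95, with fold enrichments of 7.87 and 8.52. At exon 9 the Odd pileup was 286 over 43.1 and the Even pileup 275 over 34.9, with fold enrichments of 6.64 and 7.88. Exon 9 had the higher pileup of this pair and the lower fold enrichment in each pool.

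At exon 10 the order turned. This 59-nt exon encodes residues 280 to 300 and follows an intron of 14349 bp. Its Odd peak (chr12:49908126-49908641, 516 bp) had a pileup of 148 over 4.92, or 30.1-fold, and its Even peak one of 137 over 3.97, or 34.5-fold. By fold it was first of the SPATS2 exons in both pools, yet its pileup was below that of exons 8, 9 and 11 to 14 in each. It was the only SPATS2 exon above the median fold enrichment of the Odd list.

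From exon 10 to exon 14 the fold enrichment fell at each exon in both pools while the background rose. The pileup, which the duplicate limit bounds, was at 9.49% of its Odd ceiling at exon 10 and 84.2% at exon 14. In Even these shares were 5.82% and 68.4%. The part of that limit in the fall was not tested. At exon 11 the pileup was 243 in Odd and 231 in Even, with fold enrichments of 18.0 and 21.02. At exon 12 it was 232 and 283, with 12.6 and 18.9. Exon 13, which encodes residues 371 to 442, reached 650 and 732, with 10.8 and 14.6. With the summit pileup divided by exon length, exon 13 was highest, at 3.02 in Odd and 3.40 in Even. The lowest were exon 7 in Odd at 0.45 and exon 2 in Even at 0.35. This quotient is not a density of tags, and a long exon lowers it.

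Exon 14 had the largest peak in both pools. The Odd peak (chr12:49919537-49921225, 1689 bp) had a pileup of 1313 over 148 and a fold enrichment of 8.89, and ranked 7 by p and 4 by pileup in the whole Odd list. The Even peak was 1746 bp wide and had 1608 over 143, a fold enrichment of 11.3, and ranked 13 by p and 20 by pileup. These pileups were 84.2% of the Odd ceiling and 68.4% of the Even ceiling, so the duplicate filter set a bound close to these values. Both summits lay in coding sequence, 64 bases upstream of the stop codon in Odd and 114 bases in Even. A list gives 1 summit per peak, and the level over the 3′ UTR under this peak is therefore not given by it. The peaks ended 17 bp and 38 bp past the annotated 3′ end of the gene.

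**Figure D2:**
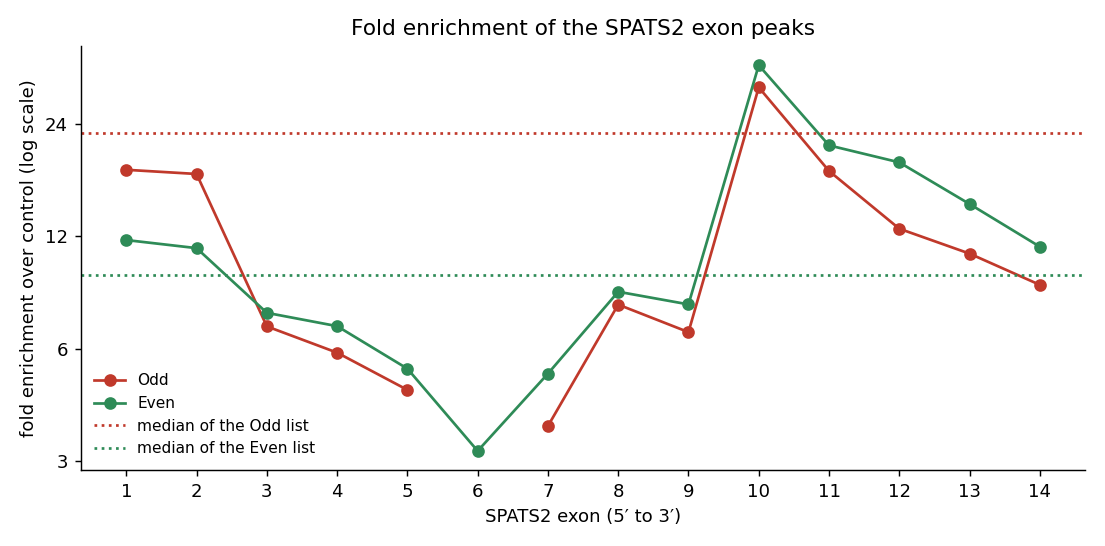
Fold enrichment over control (log scale) of the SPATS2 exon peaks in the Odd (red) and Even (green) pools, with the median of each whole list as a dotted line. Both pools have a low stretch over exons 4 to 7, a maximum at exon 10 and a decline from there to exon 14.

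The pileup spanned a wider range along SPATS2 than the fold enrichment. The highest exon stood 42.4-fold above the lowest by pileup and 8.08-fold by fold enrichment in Odd, and 73.1-fold and 10.8-fold in Even. Pileup climbed with exon number, with a Spearman rho of 0.79 in Odd over 13 exons and 0.87 in Even over 14. With exon length rho was 0.49 and 0.61, and with GC content 0.49 and 0.52. These points share their libraries, and the part of exon length, base composition and library preparation in the climb was not tested.

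The control background at SPATS2 was high for the lists. It exceeded the list median at 12 of 13 Odd exon peaks and at all 14 Even exon peaks, with a median over the SPATS2 exons of 20.9 in Odd and 15.4 in Even against list medians of 3.69 and 0.72. The pileup exceeded its list median at 11 of 13 and 14 of 14 exons. Fold enrichment did so at 1 of 13 and 7 of 14, and the median SPATS2 exon peak had a larger fold enrichment than 21.1% of the Odd list and 46.7% of the Even list. Among as many of the best Even peaks by p as the Odd list holds, the median fold enrichment was 28.3 and the median background 3.94, and SPATS2 lay above these at 1 and 13 of its 14 exons. SPATS2 thus stood high in both lists by pileup and by control background, and lower by fold enrichment. The abundance of the mRNA and its retrieval per copy cannot be told apart from a pileup.

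Background also varied along the gene with how closely its exons lie. Within 5 kb on each side of the summit there were 169 exonic bases at exon 10, 189 at exons 1, 2 and 4, and 1800 or more at exons 12 to 14. Over exons the Spearman rho between this exonic length and the background was 0.77 in Odd and 0.76 in Even, on points that share the control libraries. With fold enrichment rho was −0.23 and 0.0022. The part of neighbouring exons in the background was not tested.

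The ratio of the pools varied along the transcript. Set to the same number of kept tags, the ratio of Even to Odd pileup had a median of 1.16 over the 13 exons. It was 0.73 at exon 1 (95% counting interval 0.525 to 0.998), 1.02 at exon 3 (0.74 to 1.39) and 1.48 at exon 7 (1.09 to 2.01). At exon 11 it was 1.17 (0.93 to 1.47) and at exon 14 it was 1.51 (1.38 to 1.65). The interval at exon 1 did not overlap those at exons 7, 12, 13 and 14. This scaling leaves the longer Even extension in place, and divided by the extension as well the median was 1.04. The intervals were then 0.470 to 0.895 at exon 1 and 0.981 to 1.81 at exon 7, and those at exons 12, 13 and 14 remained above 1, with lower limits of 1.087, 1.089 and 1.24. The duplicate limit also differed, and the Odd pileup reached 14.9% of its ceiling at exon 12, 41.7% at exon 13 and 84.2% at exon 14, so the value at exon 14 in particular is bounded by it. The part of that limit in the ratio was not tested. All of these intervals are exact binomial and cover counting error only, since the Even list came from 1 library and the spread between libraries is unknown. The control background at the same number of tags, which both calls took from the same libraries, had a ratio of 0.94 to 1.38 with a median of 1.00.

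The borders and summits of the peaks followed the exons. Odd peaks began 165 to 212 bp before the exon and, on exons 1 to 13, ended 198 to 245 bp after it, so that the introns beside each exon lay under the peak for less than the tag extension. The median Even peak began 30 bp before and ended 30 bp after the Odd peak of the same exon, which is the difference between the tag extensions. Exons 3 and 4 departed from this. At exon 3 the Even peak ended 7 bp before the Odd peak, and at exon 4 it began 214 bp later than the Odd peak and 6 bp inside the exon. All summits lay inside their exon, 13 of 13 in Odd and 14 of 14 in Even.

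Summits sat near the 3′ end of the exon. On exons 8 to 13 they lay at most 35 bases from it in Odd and at most 29 in Even. On 11 of 12 Odd exons and 12 of 13 Even exons, leaving out exon 14, the summit was nearer to the 3′ than to the 5′ end. The exceptions were exon 3 in Odd and exon 5 in Even, so no exon was an exception in both pools. Over internal exons of up to 300 nt in other protein-coding genes, 55.4% of 92 Odd summits on the plus strand and 56.2% of 105 on the minus strand lay nearer to the end with the higher coordinate. For Even these shares were 57.7% of 737 and 57.6% of 721. In SPATS2 this was 10 of 11 exons in Odd and 11 of 12 in Even. The median distance between Odd and Even summits in SPATS2 was 9 bp, and 10 of 13 pairs lay within 30 bp, with exon 3 farthest apart at 214 bp.

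**Figure D3:**
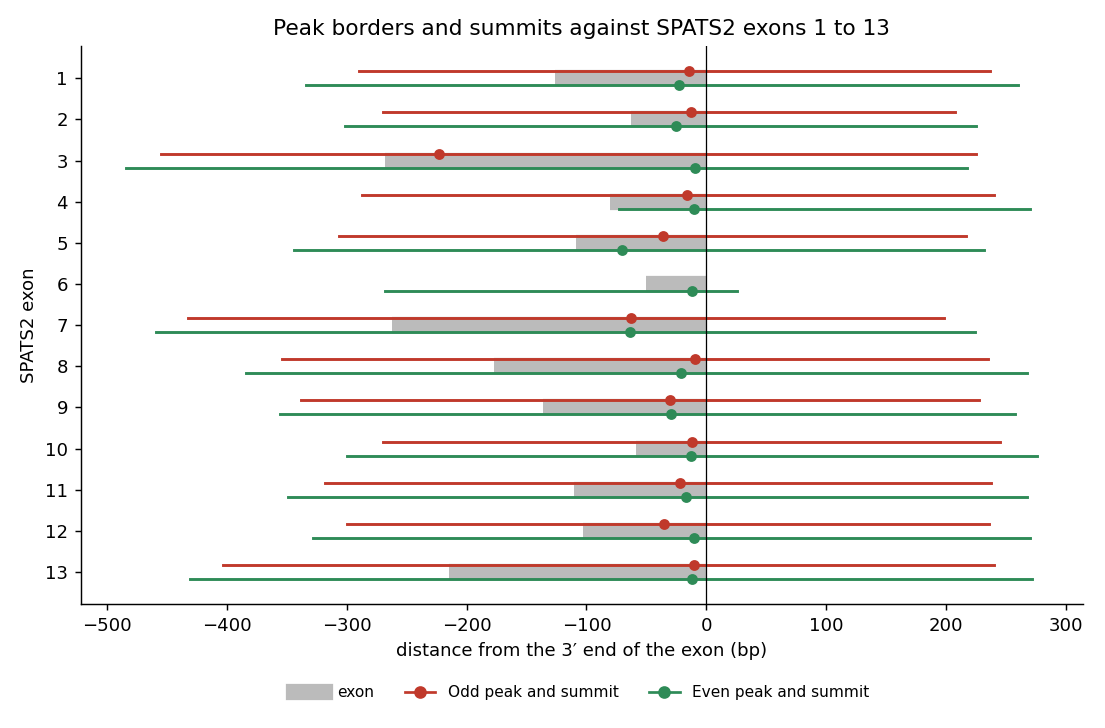
Odd (red) and Even (green) peaks as lines and their summits as dots on SPATS2 exons 1 to 13 (grey), aligned at the 3′ end of each exon. Summits gather just left of 0, Even peaks reach farther than Odd peaks on both sides of 10 of the 12 exons with both, and exons 3 and 4 depart from this.

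Away from the canonical exons little was found. The 3 remaining Even peaks lay in introns at chr12:49814313-49814602, chr12:49835307-49835596 and chr12:49835718-49836007, with pileups of 6, 8 and 6. Each was 290 bp wide, exactly 1 tag extension, as were 46.7% of all Even peaks. None was overlapped by an Odd peak. The second of them touched an 87-base exon of 4 other SPATS2 transcripts. The annotation held 10 exonic stretches of SPATS2 outside the canonical exons, among them alternative first exons upstream, and 0 of 10 had an Odd peak and 1 of 10 an Even peak. No SPATS2 peak overlapped another annotated gene in either list.

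The exon sequences were searched for copies that could take reads from elsewhere. No 48-base stretch of exons 1 to 13 occurred at another place in GRCh37, on either strand. In exon 14, 203 of 1435 such stretches (14.1%) had a copy elsewhere, up to 2097 copies, all between bases 691 and 987 of the 3′ UTR. Both summits of exon 14 lay upstream of them. The paralogue SPATS2L, a related gene on chromosome 2, had no peak in its canonical exons in either list. Each list had 1 peak elsewhere within that gene.

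The mRNA was also compared with SNHG5 itself (an annotated transcript of 451 nt, somewhat longer than the cDNA that the study cloned). Both identical and complementary stretches were searched, and the sequences of the pull-down oligonucleotides were not used here. The longest identical stretch was 12 bases, in exon 12 at chr12:49916570-49916581 and at bases 207 to 218 of SNHG5. Of 2044 canonical protein-coding mRNAs within 10% of the length of SPATS2, 10.6% had an identical stretch as long. The match lay 20 bases upstream of the Odd summit of exon 12 and 45 bases upstream of the Even summit. Exon 12 (chr12:49916534-49916636) is printed with the match in capitals.

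exon 12: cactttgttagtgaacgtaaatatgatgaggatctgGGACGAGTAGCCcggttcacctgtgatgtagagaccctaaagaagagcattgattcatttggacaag

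The longest complementary stretch was 10 bases, in exon 9 and at 2 places in exon 14, and 75.9% of the mRNAs of like length had one as long. Peaks also covered exons whose longest match was shorter. In exon 10, with the largest fold enrichment, the longest identical stretch was 9 bases and the longest complementary stretch 6. In exon 6, which had an Even peak alone, these were 10 and 6 bases. Only exact matches were searched, and these letters alone do not show pairing. The study predicted pairing of the first SNHG5 exon with the SPATS2 3′ UTR from energy and conservation, and examined it with a reporter assay. That predicted site was not assessed here, and a count of exact matches does not bear on it.

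Set beside the other genes, SPATS2 had the most Odd exon peaks of any gene. It was chosen as a transcript with many peaks, so this rank and those below are descriptions only. Of the 432 genes with an Odd peak in a canonical exon, 84.5% had 1, and the next gene after SPATS2 had 6. A count of peaks is not a count of exons, since 1 peak can span several. CPNE1 had 11 of its 16 exons under 1 Odd peak. SPATS2 also had the highest share of exons under an Odd peak, 92.9%, among the 359 such genes with at least 5 exons, and 8 of these reached 50%. In the Even list the share was 100% in SPATS2 and in 4 other genes with at least 5 exons, which were DCTN2, EIF6, PRELID1 and the bait. These had fewer peaks than exons, as in DCTN2 with 6 peaks over 14 exons, whereas SPATS2 had a peak for each exon. The shortest SPATS2 intron, of 1047 bp, is longer than the overhangs of the peaks on its 2 sides. The part of intron length in these peak counts was not tested. SPATS2 ranked first by the number of exon peaks shared between the pools, with 13.

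The protein-coding genes next by shared Odd exon peaks were CASC3, LRPPRC, PITRM1 and SLC27A2 with 4 each. CASC3, a component of the exon junction complex, had 5 Odd peaks over 10 of its 14 exons, with a median fold enrichment of 11.9 in Odd and 4.49 in Even. LRPPRC, a binder of mitochondrial mRNA, had 4 peaks over 5 of 38 exons in each list, with medians of 9.14 and 8.01. PITRM1, a mitochondrial metallopeptidase and another leading target of the study, had 4 peaks over 5 of 27 exons in each list, with medians of 19.7 and 14.2. In these genes and in SLC27A2, a fatty acid transporter and acyl-CoA synthetase with medians of 48.4 and 16.2, the median was lower in Even. In SPATS2 it was 8.89 in Odd and 9.84 in Even. GLE1, an mRNA export factor and the study's other leading target, had 2 Odd exon peaks, of which 1 was shared.

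Some genes with many exon peaks in 1 list had few or none of them shared. GLDN had 6 Odd exon peaks of which 1 was shared, and EML4 had 4 of which none was. In the Even list ZBTB20 had 20, PTK2 14 and KDM4C 12 exon peaks, and 0 of these were overlapped by an Odd peak. Over the whole lists, 39.8% of Odd and 4.32% of Even peaks were overlapped by the other list. Beside so low an Even share, the Even counts do not set these genes apart. GLDN, EML4, ZBTB20, PTK2, KDM4C, CPNE1, DCTN2, EIF6 and PRELID1 were chosen after their values were seen.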

How the data were processed

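RIA-seq libraries of HCT116 cells were aligned to hg19 with STAR, per the labels and the methods. The authors called peaks with MACS 2.0.9 against the pooled control and deposited 905 Odd peaks, kept by a reproducibility analysis of the 2 Odd libraries, and 8626 Even peaks from 1 library. The deposited pileup is a signal scaled to the larger library, the deposited fold enrichment is a ratio of pileup to control, and the deposited −log10 p is that of a Poisson test. The authors' q-values were not used.

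Control background was computed as pileup divided by fold. The Poisson p of this form lay within 2% of the deposited p for 100% of 845 usable Odd peaks and 97.5% of 8495 usable Even peaks. Peaks with a p too small to compute were left out of this check, among them those of SPATS2 exons 13 and 14. Exons came from the canonical transcript in GENCODE 44 lifted to GRCh37, and overlap meant at least 1 bp. The overlap and background steps were tested on simulated data. Counting intervals were exact binomial at 95%, on tags without molecular identifiers. Python 3.11.15, pandas and scipy were used.

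Members, gene lists and comparisons were chosen with earlier results of these data known. Genes named were SPATS2, SNHG5, PITRM1, GLE1, SPATS2L, the protein-coding genes with the most shared Odd exon peaks (ties included), and any gene under a SPATS2 peak. With 1 pooled list per pool, no test was run. Alternatives were the summit or 50% of an exon as the criterion, the best peaks by p or fold, merged transcripts, another background form, another depth and leaving out the last exon, with division by tag extension added after seeing the data.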

Additional observations from a re-analysis of the deposited data

How the results depend on the processing

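Of 18 alternative values for 8 results, 17 stayed within 1.5 times the value given, or within 0.1 for the correlation. The exception was the number of SPATS2 Odd peaks overlapped by an Even peak, which was 13 against the whole Even list and 1 when the Even list was cut, by fold enrichment, to as many peaks as the Odd list holds. Cut by p to that number, it was 10. The peak left by the fold criterion was that of exon 10. Odd exons with a peak were 13, and 10 among the conservative number of best Odd peaks. Even exons with a peak were 14, 10 among the best Even peaks by p, and 15 of 17 with the exons of 4 protein-coding transcripts merged.

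No paired analysis was possible because the Odd list pools its 2 libraries and the Even list holds 1 library, so the groups share no replicate number with values of its own. No library was left out, since the Odd libraries have no separate values and Even has 1. The median ratio of Even to Odd pileup was 1.16 and, divided by tag extension as well, 1.04, an alternative chosen after seeing the data. Counting error was widest at exon 2, with 11 unscaled Even tags at its summit.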
